A study of Mus musculus with 41 samples.

Results

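The genes described here carry glucose into the cell, break it down to pyruvate, and pass pyruvate on to lactate or into the mitochondrion. They were followed in androgenetic haploid embryonic stem cells (AG-haESCs), mouse stem cells whose single set of chromosomes comes from sperm. The members were a fixed list of 35 gene symbols looked up in the deposited expression tables. Of these, 34 were found under the listed symbol, and Pkm2 was found as Pkm, so that all 35 were measured among 24028 symbols. Values were analysed for 13 RNA-seq libraries of the 41 samples of the study.

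All libraries came from haploid cells of strain C57BL/6, enriched by sorting and grown with feeder fibroblasts. The wild-type line 2i-14 was kept in 2i/L, a serum medium (15% FBS) with LIF, the Mek inhibitor PD0325901 (1 μM) and the Gsk3β inhibitor CHIR99021 (3 μM), and gave libraries at 3 passages, p18, p39 and p50. Both other wild-type lines, TSa2i-14 (p22, p47 and p54) and TSa2i-C57 (p9 and p58), were kept in TSa2i/L, which means derivation in serum with the Src inhibitor CGP77675 and CHIR99021, followed by culture in serum-free SF/a2i/L (CGP77675 at 1.5 μM, CHIR99021 at 3 μM, N2, B27 and LIF). In the paper, TSa2i-14 is listed as C57BL/6 with an actin-EGFP modification and TSa2i-C57 as C57BL/6 alone. 2i-O48, in which H19-DMR and IG-DMR are deleted, and 2i-O48-TKO, in which the gene H19 is deleted in addition, were kept in 2i/L, and each gave 1 library. These 2 lines and 2i-14 were also moved to SF/a2i/L, and each gave 1 library 5 passages after the switch. Base medium, serum and inhibitor changed together between the media, so their parts cannot be told apart. All wild-type 2i/L libraries were passages of a single line, so medium and line cannot be told apart between TSa2i/L and 2i/L either. Libraries of one line were different passages and not independent lines, and p-values measure the spread between such libraries.

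In glycolysis, glucose enters through a transporter, is trapped by hexokinase, and is split and oxidised to pyruvate by a chain of enzymes. Lactate dehydrogenase interconverts pyruvate and lactate. The alternative is entry into the mitochondrion through the pyruvate carrier and oxidation by pyruvate dehydrogenase, which the pyruvate dehydrogenase kinases switch off. Most steps have several isoenzymes encoded by different genes, and mouse naive stem cells are known to use both glycolysis and respiration. Many of these genes are textbook targets of the hypoxia-inducible factors, and Bnip3, a mitophagy receptor on the mitochondrial surface, is another such target and was part of the list.

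Embryonic stem cell markers were high in every library, with 9 genes summing to between 16100 and 35300 FPKM, and markers of primitive endoderm and trophoblast summed to at most 1.74 FPKM. The stem cell marker Nanog was lower after the switch, from 248, 467 and 232 FPKM to 180, 195 and 110 FPKM in 2i-14 (p50 before the switch), 2i-O48 and 2i-O48-TKO (limma change -0.93, adjusted p = 0.0483), and its part in the switch results was not tested. Fibroblast markers (14 genes) summed to 64.5, 136 and 41.5 FPKM in 2i-14 p39, TSa2i-14 p54 and TSa2i-C57 p58, and to between 1.52 and 9.76 FPKM in the other 10. Counts of members called in the medium, line and passage comparisons are given with and without these 3 libraries. Levels and shares are given with all libraries. MicroRNA loci held 67.2% of the summed FPKM in switched 2i-14 cells and 23.2% in 2i-14 p18, against at most 1.1% elsewhere. The implied depth was between 12700000 and 19500000 fragments, at which 3 fragments on a transcript of 1 kb are worth 0.154 to 0.236 FPKM.

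**Figure D1:**
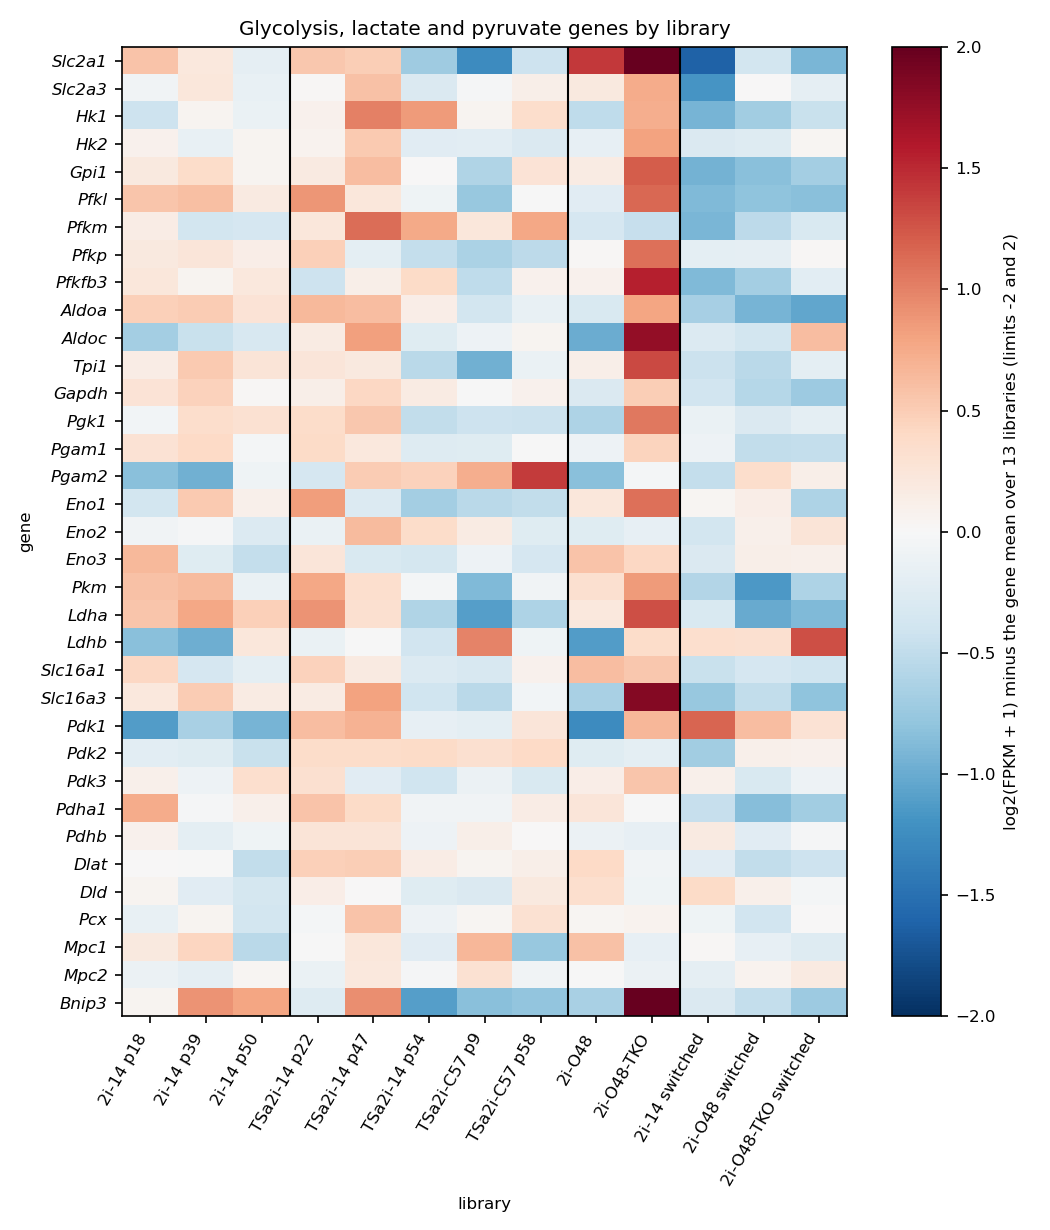
Level of each of the 35 genes (rows, in pathway order) in each of the 13 libraries (columns), as log2(FPKM + 1) minus the mean of that gene over the libraries. Black lines separate wild-type 2i/L, TSa2i/L, DMR-deleted 2i/L and switched libraries, and the column of 2i-O48-TKO is red for most glycolytic genes while the 3 switched columns are blue for many of them.

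Most of the pathway was strongly expressed. FPKM is scaled to transcript length, so levels can be set side by side between genes. The mean over 13 libraries was at least 100 FPKM for 11 members, between 10 and 100 for 14, between 1 and 10 for 7, and under 1 for Eno2, Pdk2 and Pcx. In every library, 29 of the 35 members reached 1 FPKM. The 35 members together held 0.515% to 1.49% of the summed FPKM (microRNA loci left out), lowest in switched 2i-O48 and highest in 2i-O48-TKO. The mRNA of Aldoa, the aldolase that splits fructose bisphosphate, was the most abundant at a mean of 1405 ± 549 FPKM (SD, n = 13). Ldha, the lactate dehydrogenase subunit that prevails in glycolytic tissue, followed at 924 ± 497 FPKM, and Pgam1, a phosphoglycerate mutase, at 568 ± 126 FPKM. Next came Tpi1 (triose phosphate isomerase) at 401 ± 185, Gapdh (the oxidising step) at 383 ± 96.7, Ldhb (the other lactate dehydrogenase subunit) at 359 ± 183 and Pkm (pyruvate kinase) at 338 ± 140 FPKM. Neighbours in this order overlapped widely between libraries. Pcx, the carboxylase that makes oxaloacetate from pyruvate, lay between 0.315 and 1.55 FPKM.

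The members differed in how much they varied. The highest library exceeded the lowest by 33.5-fold for Slc16a3, by 17.4-fold for Pfkfb3, by 14.9-fold for Slc2a1 and by 12.4-fold for Bnip3, and 2i-O48-TKO was the highest library for each of these. The ratio was only 1.40 for Pdhb, at 218 to 304 FPKM, 1.41 for Mpc2, at 71.5 to 101 FPKM, and 1.68 for Dld, the shared lipoamide dehydrogenase, at 45.3 to 76.1 FPKM. Mpc1 (2.75-fold) and Pdha1 (3.05-fold) moved more than their partners. Among abundant glycolytic genes, Pgam1 varied by 1.93-fold, at 393 to 760 FPKM, and Gapdh, often taken as a reference gene, by 2.32-fold, at 224 to 520 FPKM.

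In 5 families a single isoenzyme held at least 80.9% of the mRNA in all 13 libraries, and in the phosphofructokinases and pyruvate carriers the same gene led throughout with a smaller share. Hk2, the hexokinase typical of growing cells, held 80.9% to 96.2% of the summed FPKM of Hk1 and Hk2. Its lowest share was in TSa2i-14 p54, the library with the highest fibroblast markers. Pfkp led the phosphofructokinases with 52.9% to 79.5%, ahead of Pfkl with 10.3% to 23.4% and Pfkm with 4.70% to 27.9%. Aldoa held at least 95.1% of the aldolases, Pgam1 at least 93.3% of the mutases, and Slc16a1, which moves lactate together with a proton, at least 87.6% of the monocarboxylate transporters. Pdk3 held 87.5% to 97.8% of the pyruvate dehydrogenase kinases, although Pdk1 is the better known hypoxia target. Mpc2 held 60% to 79.2% of the pyruvate carrier, which works as a pair of Mpc1 and Mpc2.

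Apart from the enolases, taken up below, the leading gene changed between libraries in a pair of families. Slc2a1, the widespread glucose transporter GLUT1, held 31.0% to 75.2% of the summed FPKM of Slc2a1 and Slc2a3 (GLUT3) and led in 7 of 13 libraries. Ldha led Ldhb in 11 libraries and fell below it in TSa2i-C57 p9, with a ratio of 0.587, and in switched 2i-O48-TKO, with a ratio of 0.557. In switched 2i-O48 the ratio was 1.00, and in the remaining libraries it ran from 1.61 to 8.45.

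The enolases need care. Eno1 was listed at only 4.55 to 17.9 FPKM, while Eno1b, a near-identical intronless copy that is not a member, was listed at 720 to 1894 FPKM. Reads cannot be divided safely between such copies, so the level of Eno1 and the share of 46.0% to 76.8% that it held of Eno1, Eno2 and Eno3 are uncertain. In 2i-14 p18, Eno3 led these listed genes with 50.9%, and Eno1 led in the other libraries. With Eno1b added, a choice made after the values were seen, Eno1b held 98.2% to 99.3% of the family. Gapdh, Pgk1, Aldoa, Ldha, Pkm and Tpi1 also have processed copies in the mouse genome, and how their reads were divided is not stated.

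**Figure D2:**
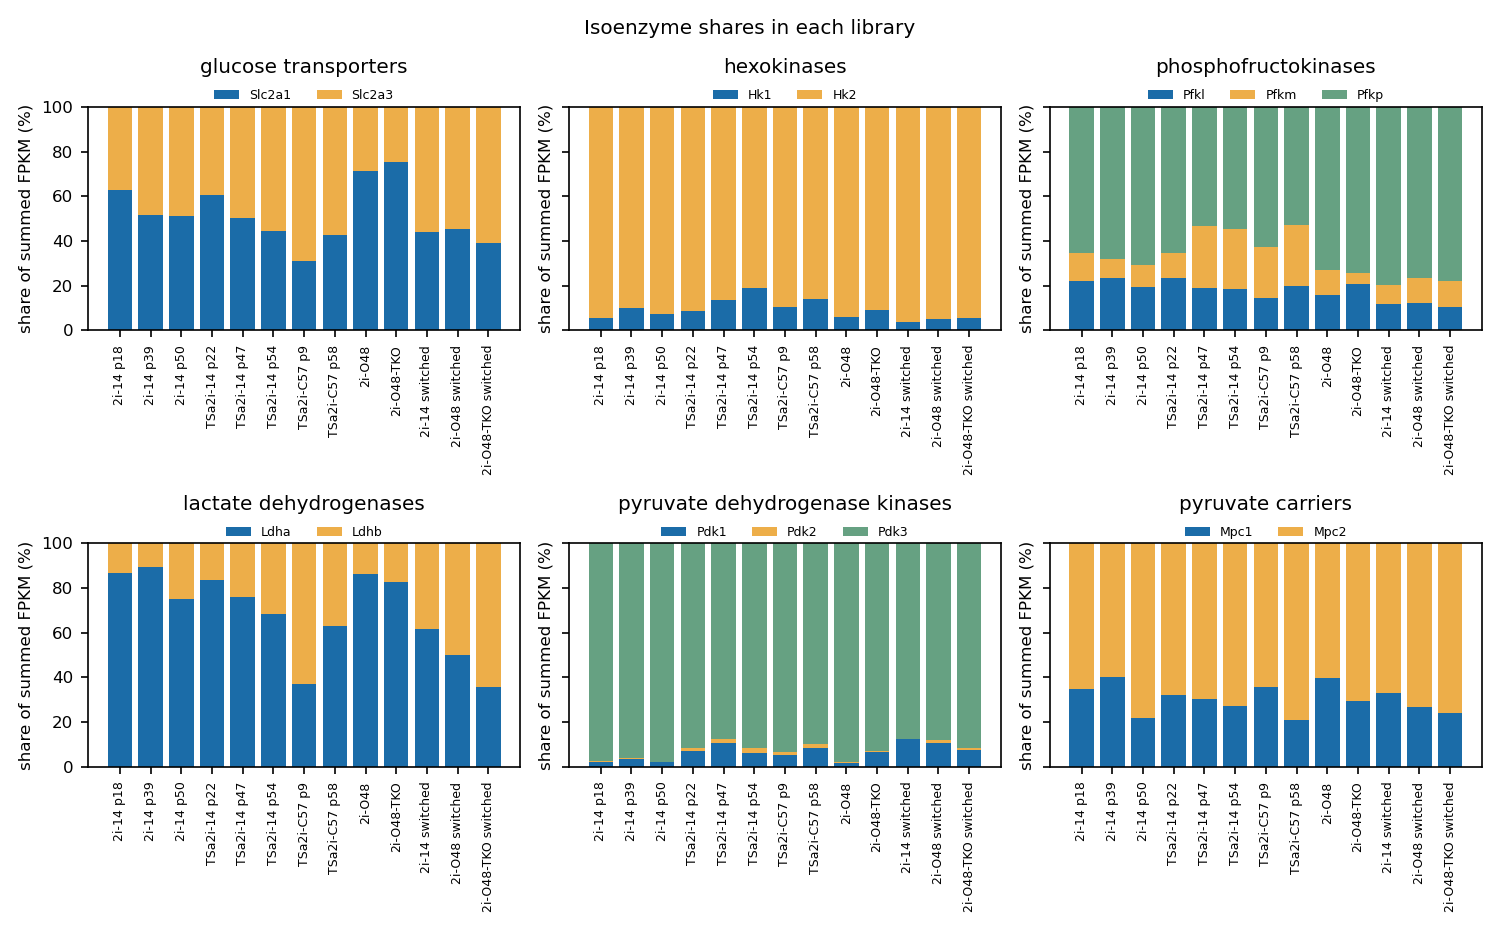
Share of each isoenzyme in the summed FPKM of its family (y axis, percent) in each of the 13 libraries (x axis), for 6 families. Hk2, Pfkp, Pdk3 and Mpc2 lead in every library, while the share of Ldha runs from 35.8% to 89.4% and that of Slc2a1 from 31.0% to 75.2%.

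The switch comparison asks what changed when a line was moved from 2i/L to SF/a2i/L. The mRNA of the glucose transporter Slc2a1 and of 6 genes of glycolysis, its regulation and lactate formation fell, while the other transporter, Slc2a3, did not pass (change -0.72, limma adjusted p = 0.107, groups overlapping). In a fit blocked by cell line, in which 2i-14 p50 stood for unswitched 2i-14, 31 members were tested by limma and 7 passed an adjusted p of 0.05, all of them lower after the switch. Over all 9759 genes tested, 6.89% passed, 4.66% being lower and 2.22% higher. At an unadjusted p under 0.05, 16 members passed, beside 26.1% of all genes. The median change over the 31 members was -0.54 on the log2(FPKM + 1) scale, beside -0.09 over all genes tested. In 25 of the 31 members (80.6%) the fitted change was below 0, beside 58.8% of all genes tested. All changes below are on this log2(FPKM + 1) scale, which understates the change of low genes.

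Slc2a1 had the largest of these falls. It was at 83.7, 254 and 451 FPKM in unswitched 2i-14 p50, 2i-O48 and 2i-O48-TKO, and at 30.2, 73.3 and 49.9 FPKM after the switch. Every switched value lay below every unswitched one, and the drop ran from 2.77-fold in 2i-14 to 9.04-fold in 2i-O48-TKO. The fitted change was -2.12 (SE 0.33, limma adjusted p = 0.0216). In mm9, Slc2a1 lies at chr4:118781316-118809935 on the plus strand.

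Ldha, at chr7:54096845-54110997 in mm9 on the plus strand, was at 1125, 931 and 1975 FPKM before the switch and at 653, 401 and 436 FPKM after it. The groups did not overlap, and the fitted change was -1.39 (SE 0.26, limma adjusted p = 0.0354). Gpi1, the isomerase that makes fructose 6-phosphate, was at 54, 58 and 121 FPKM before and at 26.4, 28.8 and 32.0 FPKM after the switch. Its fitted change was -1.29 (SE 0.24, limma adjusted p = 0.0340), and the values of the 2i-14 and 2i-O48 lines fell by nearly the same factor, 2.04 and 2.01.

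Pfkfb3 makes fructose 2,6-bisphosphate, the activator of phosphofructokinase. It was low throughout, at 1.93, 1.70 and 6.45 FPKM before and 0.371, 0.576 and 1.18 FPKM after the switch, with a fitted change of -1.21 (SE 0.24, limma adjusted p = 0.0374). Aldoa was at 1576, 1053 and 2245 FPKM before and at 821, 679 and 630 FPKM after the switch, a change of -1.14 (SE 0.24, limma adjusted p = 0.0434). Both genes were lower in 3 of 3 lines without overlap. Pkm went from 282, 386 and 556 FPKM to 206, 139 and 201 FPKM, a change of -1.13 (SE 0.24, limma adjusted p = 0.0461). Tpi1 went from 445, 404 and 925 FPKM to 274, 254 and 323 FPKM, a change of -0.96 (SE 0.21, limma adjusted p = 0.0487). In both genes too the switched values all lay below the unswitched ones. Without overlap, 13 of 31 members were lower after the switch and 0 were higher, beside 19.8% and 11.5% of all genes tested.

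The later pathway behaved less evenly. Ldhb was at 374, 148 and 415 FPKM before and 407, 401 and 783 FPKM after the switch, so that it was higher in 3 of 3 lines, by between 1.09-fold and 2.72-fold, and did not pass the test (change 0.82, limma adjusted p = 0.11). The share of Ldha in Ldha and Ldhb was 75.0%, 86.3% and 82.6% before and 61.6%, 50% and 35.8% after the switch, without overlap. Pdk1 was at 2.30, 1.62 and 8.91 FPKM before and at 13.1, 8.57 and 6.68 FPKM after the switch. It was higher after the switch in 2i-14 and 2i-O48 and lower in 2i-O48-TKO (change 1.20, limma adjusted p = 0.179). The values of Pdhb, the beta subunit of pyruvate dehydrogenase, interleaved, at 218 to 288 FPKM after the switch and 226 to 239 before it. Pdha1, the catalytic alpha subunit, was at 185, 205 and 173 FPKM before and 126, 95.2 and 107 FPKM after the switch, with a change of -0.78 and a limma adjusted p of 0.0573.

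The library of 2i-O48-TKO in 2i/L weighed heavily on this comparison. Without that line, 2 members passed, Slc2a1 lower (change -1.61, limma adjusted p = 0.0288) and Pdk1 higher, while 311 genes in all passed, against 672 with the 3 lines. The other 6 genes stayed below 0, at -1.0 for Ldha, -0.99 for Gpi1, -0.96 for Pkm, -0.93 for Pfkfb3, -0.79 for Aldoa and -0.68 for Tpi1. Without 2i-14 the test passed 11 members, 10 lower and Ldhb higher, and without 2i-O48 it passed 15, all lower; over all genes it passed 1031 and 1461. With no filter on low values 0 members passed by limma, and 0 of all genes did. Taken one line at a time, a difference of at least 1 was seen downwards in 6 of 32 members in 2i-14, in 4 of 31 in 2i-O48 and in 16 of 32 in 2i-O48-TKO. The corresponding shares of all genes were 7.14%, 12.8% and 6.99%. Upwards there were 1 (Pdk1), 3 (Pdk1, Ldhb and Pgam2) and 0 members, beside 4.81%, 5.29% and 3.06% of all genes. Whether the switch effect of 2i-14 differed from that of the DMR-deleted lines was tested by an interaction, in which 0 of 31 members passed by limma (3 genes, 0.0307% of all tested, did). At an unadjusted p under 0.05, 3 members (Ldhb, Pkm and Ldha) and 6.52% of all genes tested passed, and with 1 wild-type pair the fit had 1 residual degree of freedom.

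**Figure D3:**
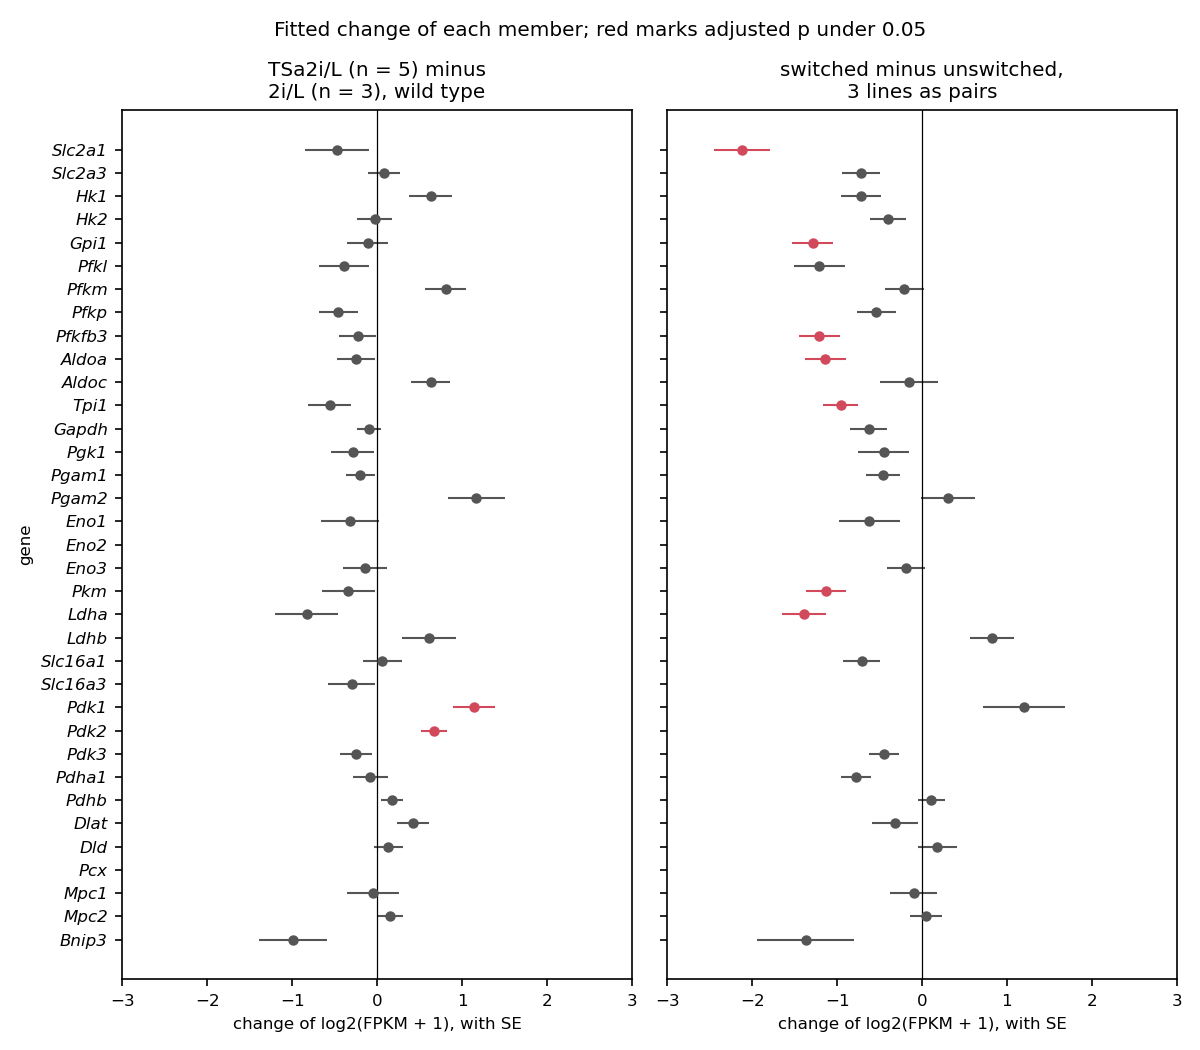
Fitted change of log2(FPKM + 1) of each tested member (points, with bars for the SE), for 5 TSa2i/L against 3 wild-type 2i/L libraries on the left and for switched against unswitched cells of 3 lines on the right. Red marks an adjusted p under 0.05: Pdk1 and Pdk2 on the left, and 7 genes on the right, from Slc2a1 at -2.12 to Tpi1 at -0.96.

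The start regions of the members, whether they fell or not, were searched for short motifs. RefSeq promoter windows on GRCm38.p6, from 250 bases before to 50 bases after a start site, were held for 34 of the 35 members, in 50 windows. ACGTG, the core of the element bound by hypoxia-inducible factors, was searched on both strands together with CACGTG, the E-box bound by Myc and related factors, which overlaps it. ACGTG occurred in 22 of the 50 windows (44.0%), beside 19.6% of all 32851 windows and 26.6% of the 9421 windows of genes tested in the switch comparison. CACGTG occurred in 7 of the 50 (14%), beside 7.2% and 10.8%. Of the 7 genes that fell, Slc2a1, Ldha, Aldoa, Pfkfb3 and Pkm held ACGTG in a window, and Gpi1 and Tpi1 did not. By gene, 19 of the 34 members held ACGTG, many of them not called in the switch comparison, beside 21.8% of all genes with a window. The 3 windows below, picked after the matches were seen, are examples of called genes that hold it. Ldha holds 5 matches at 3 places, since CACGTG matches on both strands. Slc2a1 is chr4:119108495-119108794 on the plus strand, Ldha chr7:46845554-46845853 on the plus strand and Aldoa chr7:126799129-126799428 on the minus strand, each written 5′ to 3′ along its gene. Capitals mark ACGTG or its reverse complement, and a match is a description of letters and not a bound site.
Slc2a1: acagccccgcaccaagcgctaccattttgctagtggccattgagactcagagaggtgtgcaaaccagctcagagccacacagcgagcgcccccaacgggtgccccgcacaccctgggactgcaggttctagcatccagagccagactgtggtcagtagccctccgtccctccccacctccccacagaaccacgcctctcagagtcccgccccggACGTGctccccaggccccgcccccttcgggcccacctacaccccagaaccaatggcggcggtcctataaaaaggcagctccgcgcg
Ldha: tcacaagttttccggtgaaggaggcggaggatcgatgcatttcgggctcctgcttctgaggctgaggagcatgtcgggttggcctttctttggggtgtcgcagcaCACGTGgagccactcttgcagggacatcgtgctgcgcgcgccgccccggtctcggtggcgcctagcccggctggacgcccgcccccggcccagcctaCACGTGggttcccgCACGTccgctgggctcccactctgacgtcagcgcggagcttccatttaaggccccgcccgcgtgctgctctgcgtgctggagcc
Aldoa: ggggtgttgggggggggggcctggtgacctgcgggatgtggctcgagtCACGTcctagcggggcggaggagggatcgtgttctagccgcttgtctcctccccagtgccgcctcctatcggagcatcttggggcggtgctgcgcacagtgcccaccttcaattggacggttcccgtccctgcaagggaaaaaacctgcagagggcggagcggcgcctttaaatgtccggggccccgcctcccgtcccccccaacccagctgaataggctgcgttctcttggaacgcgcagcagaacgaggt

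The medium comparison set the 5 wild-type TSa2i/L libraries against the 3 libraries of 2i-14 in 2i/L. Of 33 members tested, 2 passed (6.06%), Pdk1 and Pdk2, kinases that switch off pyruvate dehydrogenase. Both were higher in TSa2i/L. Over all 10387 genes tested, 7.57% passed, 5.72% being higher and 1.85% lower. The members' share was close to that of all genes, and Pdk3, which holds most of the kinase mRNA, did not pass (change -0.25, limma adjusted p = 0.468). The median change was -0.10 over the members and 0.07 over all genes.

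Pdk1, at chr2:71711281-71741915 in mm9 on the plus strand, was at 1.89 FPKM in 2i-14 at p18, 2.98 FPKM at p39 and 2.30 FPKM at p50. In TSa2i-14 it was at 8.59, 9.16 and 4.56 FPKM at p22, p47 and p54, and in TSa2i-C57 at 4.49 and 6.44 FPKM at p9 and p58. Every TSa2i/L value lay above every 2i/L value of 2i-14, and the change was 1.14 (SE 0.25, limma adjusted p = 0.0202). The DMR-deleted lines in 2i/L stood at 1.62 FPKM (2i-O48) and 8.91 FPKM (2i-O48-TKO). With both added to the 2i/L group, the change of Pdk1 was 0.9 (limma adjusted p = 0.0958). Pdk2, Pfkm and Pgam2 then passed, all higher, and 1250 genes in all did. Pdk2 was at 0.555, 0.527 and 0.320 FPKM in 2i-14 and between 1.24 and 1.37 FPKM in the 5 TSa2i/L libraries, a narrow band without overlap (change 0.67, SE 0.15, limma adjusted p = 0.0217). These are low values, beside a floor of 0.158 to 0.224 FPKM for 3 fragments on 1 kb in the 3 libraries of 2i-14. After the switch to SF/a2i/L, Pdk2 stayed below the TSa2i/L band in each line. It was at 0.116 FPKM in switched 2i-14, 0.942 FPKM in switched 2i-O48 and 0.915 FPKM in switched 2i-O48-TKO. Pdk3, the most abundant kinase, was at 79.9 to 109 FPKM in 2i-14 and 65.5 to 108 FPKM in TSa2i/L and did not pass. The ratio of Pdk3 to Pdk1 was 26.8 to 49 in 2i-14 and 8.07 to 17.8 in TSa2i/L. Without the 3 libraries with high fibroblast markers 0 members passed, with Pdk1 at 1.39 (limma adjusted p = 0.0628) and Pdk2 at 0.68 (limma adjusted p = 0.195).

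Pgam2, the muscle type mutase, had the largest fitted change of the members but did not pass, at 6.99 to 13.6 FPKM in 2i-14 and 11.3 to 39.7 FPKM in TSa2i/L (change 1.17, SE 0.34, limma adjusted p = 0.059). Its lowest and highest values were in 2i-14 p39 and TSa2i-C57 p58, which had high fibroblast markers. Without the 3 libraries with high fibroblast markers, its change was 0.76 (limma adjusted p = 0.389), smaller than that of Pdk1. Without overlap, Pdk1, Pdk2, Hk1, Pfkm, Aldoc and Dlat were higher in TSa2i/L, 6 of 33 members beside 11.8% of all genes, and 0 were lower, beside 4.72%. Slc2a1 overlapped between the media, at 83.7 to 142 FPKM in 2i-14 and 39.3 to 138 FPKM in TSa2i/L. Ldha did so too, at 1125 to 1375 FPKM and 374 to 1502 FPKM. Within TSa2i/L both were high at TSa2i-14 p22, with 138 and 1502 FPKM, and lowest at TSa2i-C57 p9, with 39.3 and 374 FPKM. Without TSa2i-14 p22, 6 members passed, Pdk1, Pdk2, Pfkm and Pgam2 higher and Ldha and Pfkp lower; without 2i-14 p18 or without 2i-14 p50, 0 passed. Over all genes 846, 508 and 454 passed in these fits, against 786. In the last 2, the change of Pdk1 was 1.03 and 1.12 and that of Pdk2 was 0.71 and 0.59. Without 2i-14 p39, Pdk1 alone passed and 383 genes in all did; without TSa2i-14 p47, 3 members and 440 genes did. This comparison and the switch comparison share 2i-14 p50, so they are not independent.

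**Figure D4:**
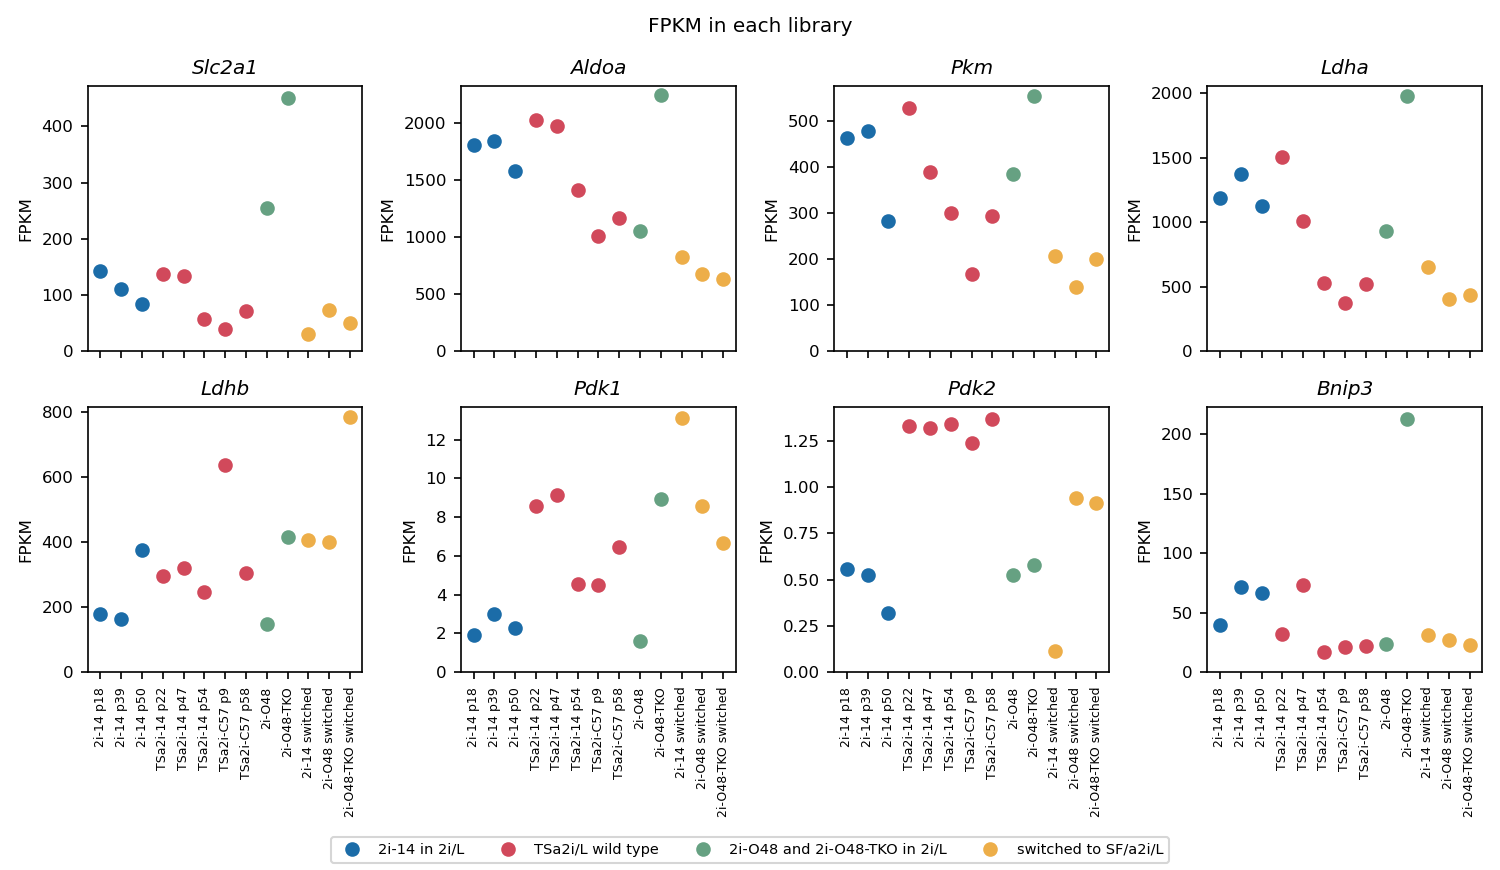
FPKM (y axis, starting at 0) of 8 genes in each of the 13 libraries (x axis), coloured by group. Slc2a1, Aldoa, Pkm and Ldha are high in 2i-O48-TKO and low in the 3 switched libraries, Pdk2 sits between 1.24 and 1.37 in all 5 TSa2i/L libraries, and Bnip3 stands at 213 in 2i-O48-TKO.

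The comparison of DMR-deleted with wild-type cells in 2i/L set 2i-O48 and 2i-O48-TKO against the passages of 2i-14. The deleted lines are other lines than 2i-14, and their passages are not in the labels. Deletion, line and passage therefore cannot be told apart here. 2i-O48-TKO also carries the deletions of 2i-O48, so these libraries are not replicates of 1 genotype. By limma 0 of 32 members passed, and 12 genes (0.118% of 10164) did, 0.0787% higher and 0.0394% lower, and 1 member, Slc2a1, had an unadjusted p under 0.05, beside 5.79% of all genes. The fitted change was above 0 in 26 of the 32 members (81.2%), beside 55.7% of all genes tested. The median change was 0.29 over the members and 0.03 over all genes. The 254 and 451 FPKM of Slc2a1 in 2i-O48 and 2i-O48-TKO lay above 83.7 to 142 FPKM in 2i-14 (change 1.62, SE 0.31, limma adjusted p = 0.166). Aldoc (change 0.87, limma adjusted p = 1) and Pfkfb3 (change 0.66, limma adjusted p = 0.999) came next by size; without 2i-O48-TKO their changes were -0.51 and -0.07. Without overlap, Slc2a1 and Slc16a1 were higher and 0 members were lower, beside 11.9% and 7.74% of all genes. These controls were also used in the medium comparison.

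The 2 DMR-deleted libraries were unlike each other. 2i-O48-TKO had the highest value of the 5 libraries in 2i/L for 23 of 32 members, beside 19.3% of all genes. Set against 2i-O48, 14 of 32 members were higher by at least 1 and 0 were lower, beside 4.01% and 3.08% of all genes. These counts come from 1 library each and have no test. Bnip3 stood at 24 FPKM in the former and at 213 FPKM in the TKO line. Slc16a3, the lactate exporter of glycolytic cells, was at 0.330 and 6.49 FPKM, and Aldoc, the brain type aldolase, at 9.82 and 72.1 FPKM. Pgk1, the first step that yields ATP, was at 158 and 507 FPKM, while Pdhb was at 233 and 226 FPKM. In 9 members the value was lower in 2i-O48-TKO: the pyruvate dehydrogenase subunits Pdha1, Pdhb, Dlat and Dld, the carriers Mpc1 and Mpc2, and Pfkm, Eno3 and Slc16a1.

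After the switch no member differed by that much. Of 31 members, 0 differed by at least 1 in either direction between switched 2i-O48-TKO and switched 2i-O48, beside 1.56% and 1.83% of all genes. Bnip3 was then at 27 FPKM in switched 2i-O48 and 22.5 FPKM in switched 2i-O48-TKO, and Slc16a3 at 0.485 and 0.194 FPKM. Aldoc, at 15.7 and 32.2 FPKM, and Ldhb, at 401 and 783 FPKM, stayed higher in switched 2i-O48-TKO, just short of that cutoff.

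Many of 24 other hypoxia response genes were high in the same library. 2i-O48-TKO had the highest value of the 5 libraries in 2i/L for 18 of the 24, beside 19.3% of all genes. It exceeded 2i-O48 by at least 1 in 10 of 23 and fell short by as much in 0, beside 4.01% and 3.08% of all genes. Vegfa (angiogenic factor) was at 2.04 and 8.14 FPKM, Ankrd37 at 26.2 and 72.2 FPKM and Fam162a at 113 and 387 FPKM. Hif1a itself was at 15.8 and 11.1 FPKM. Oxygen, cell density and glucose at harvest are not given in the labels, and their part was not tested.

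**Figure D5:**
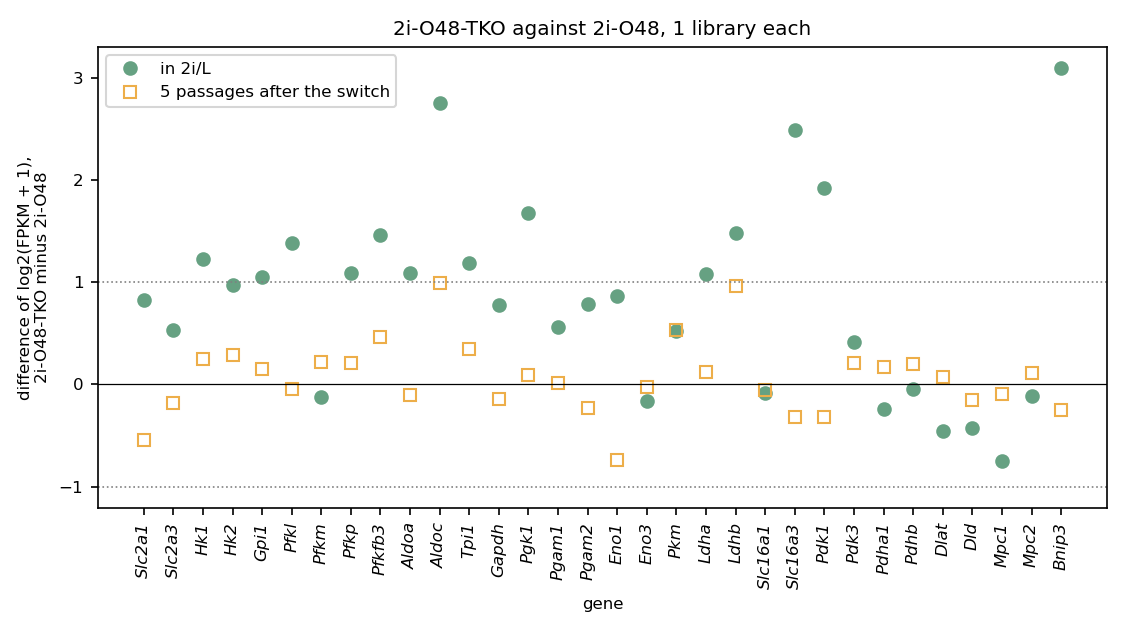
Difference of log2(FPKM + 1) between 2i-O48-TKO and 2i-O48 (y axis) for each member with at least 1 FPKM in either library in 2i/L (x axis). Filled circles are cells in 2i/L, where 14 genes lie above 1, and open squares are cells 5 passages after the switch, where 0 genes lie beyond 1 or -1.

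Between the wild-type lines in TSa2i/L, 0 of 34 members passed by limma and 0 of 10502 genes did (0.0%). At an unadjusted p under 0.05, 5 members and 366 genes (3.49%) passed. The fitted change was below 0 in 30 of the 34 members (88.2%), beside 53.9% of all genes tested. The median change was -0.26 over the members and -0.02 over all genes. Ldha was at 1502, 1005 and 531 FPKM in TSa2i-14 and at 374 and 523 FPKM in TSa2i-C57 (change -1.07, SE 0.37, limma adjusted p = 0.999). Slc2a1 was at 138, 134 and 57.6 FPKM and at 39.3 and 71.4 FPKM (change -0.93, SE 0.39, limma adjusted p = 0.999). Pgam2 was at 11.3, 21.1 and 20.2 FPKM and at 24.5 and 39.7 FPKM (change 0.85, SE 0.33, limma adjusted p = 0.999). The groups did not overlap for Ldha and Pgam2 and did for Slc2a1. Without overlap, 6 members were lower in TSa2i-C57 and 1 was higher, beside 7.55% and 8.39% of all genes. In TSa2i-14 p54, which had the highest fibroblast markers, Ldha and Slc2a1 were lowest of the 3 passages of that line. Without TSa2i-14 p54 alone, Ldha passed (change -1.47, limma adjusted p = 0.0202). Without both libraries with high fibroblast markers, Aldoa, Ldha, Pkm, Slc2a1 and Tpi1 passed, all lower in TSa2i-C57, which was then a single library at p9, assumed to vary like the other line. Over all genes 62 passed in that fit, 25 higher and 37 lower, and 9 without TSa2i-14 p54 alone.

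Between late (p47, p54 and p58) and early (p22 and p9) passages in TSa2i/L, 0 of 34 members and 0 of 10502 genes (0.0%) passed by limma, and 3 members and 928 genes (8.84%) had an unadjusted p under 0.05. These members were Hk1, the housekeeping hexokinase, Pfkm and Pfkfb3. Hk1 was at 2.85 and 2.78 FPKM early and at 6.26, 5.53 and 3.63 FPKM late (change 0.66, SE 0.25, limma adjusted p = 0.535). Pfkm was at 10.2 and 10.1 FPKM early and 19.7, 15.1 and 15.3 FPKM late (change 0.66, SE 0.22, limma adjusted p = 0.53). Pfkfb3 was at 0.900 and 0.775 FPKM early and 1.74, 2.31 and 1.69 FPKM late (change 0.66, SE 0.20, limma adjusted p = 0.53). Each of the 3 was higher late without overlap, as were 18.5% of all genes tested, and 2 members (Eno3 and Pdk3) were lower, beside 9.72%; 2 of the 3 late libraries were those with high fibroblast markers. Without these 2, which leaves p47 as the only late library, assumed to vary like the early ones, 0 members and 0 genes passed by limma, and the changes were 0.93 for Hk1, 0.90 for Pfkm and 0.57 for Pfkfb3 (limma adjusted p = 1 for each).

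Other genes of carbon metabolism were read from lists held beside the members. Over all genes tested, 4.66% fell and 2.22% rose after the switch, and 5.72% rose and 1.85% fell in TSa2i/L. Of 10 other tested genes of glycolysis and glucose handling, 2 fell after the switch. They were Fbp2, a fructose bisphosphatase, from 24.1, 9.38 and 5.10 FPKM in 2i-O48, 2i-O48-TKO and 2i-14 p50 to at most 1.72 FPKM (change -2.36, limma adjusted p = 0.0133), and Pgm1, a phosphoglucomutase (change -1.26, limma adjusted p = 0.0365). In TSa2i/L, 1 of the 10 rose, the gluconeogenic enzyme Pck2 (change 1.19, limma adjusted p = 0.0374). Of 13 other lactate and pyruvate genes, Gpt2, which exchanges alanine and pyruvate, rose both in TSa2i/L (change 1.67, limma adjusted p = 0.00206) and after the switch (change 1.01, limma adjusted p = 0.0453). Ldhd, the D-lactate dehydrogenase, rose in TSa2i/L (change 1.23, limma adjusted p = 0.0057), and Emb, a partner of monocarboxylate transporters, rose after the switch from 50, 22.8 and 17.4 FPKM to 103, 76.2 and 44.9 FPKM in the order 2i-14, 2i-O48, 2i-O48-TKO (change 1.35, limma adjusted p = 0.0203).

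Of 21 hypoxia response genes tested in the switch comparison, Ankrd37 (change -2.16, limma adjusted p = 0.0196), Ak4 (change -1.45, limma adjusted p = 0.0354) and Kdm3a (change -1.01, limma adjusted p = 0.0447) fell and 0 rose. In the medium comparison, Ankrd37 fell by 1.33 and Ddit4 rose by 1.15 among 23. The pentose phosphate pathway, which branches off at glucose 6-phosphate, had 1 of 6 genes lower after the switch, Tkt (transketolase, change -0.91, limma adjusted p = 0.0416). In TSa2i/L, 1 of 7 was higher, Pgls (change 0.54, limma adjusted p = 0.0346). In the citric acid cycle, 2 of 17 genes fell after the switch, Idh2 (change -0.91, limma adjusted p = 0.0331) and Mdh2 (change -0.57). The limma adjusted p of Mdh2 was 0.05 after rounding, so this call lay at the threshold. Mdh2 also fell by 0.61 in TSa2i/L (limma adjusted p = 0.0159). In the line, passage and deletion comparisons 0 genes of these lists passed.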

How the data were processed

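Members and gene lists were chosen with earlier results of these data known. The authors amplified cDNA of sorted haploid cells and deposited FPKM values, which are fragments scaled to transcript length and library size. The submitters' processing notes name TopHat2 2.0.11, Bowtie2 2.2.2, Cufflinks 2.2.1 and mm9; the gene annotation is not given in the sources used here. Rows of one symbol were summed. Comparisons were fitted on log2(FPKM + 1) in R 4.3.3 using limma 3.58.1 (intensity trend, Benjamini-Hochberg adjustment at 0.05) over all genes that reached 1 FPKM in a number of libraries equal to the size of the smaller group. No count model fits FPKM values, and depth was implied from the smallest FPKM values; floors cover counting error only.

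The members were all given by level, with fitted values for those called and, where fewer than 3 were called, for the largest changes up to 3; other gene lists gave up to 6 called genes a comparison. Hypoxia genes in 2i-O48-TKO were named after their values were seen. The switch comparison used the cell line as a block, since the labels name the same line before and after. Deviations from the group means correlated at 0.172 for 2i-14, -0.141 for 2i-O48 and 0.358 for 2i-O48-TKO. The fits were tested on simulated data in which all noise was independent, so the line effects of the switch comparison were not reproduced. In the switch comparison over 9759 genes, 0% of 100 genes changed by a log2 of 1 and 60% of 100 changed by 2 were recovered, and in the medium comparison over 10387 genes 67% and 92%. Alternatives covered the pseudocount, filters, scaling, trend, repeated symbols, block, controls and leaving out each library or line. Coordinates in mm9 came from GENCODE vM1 and promoters from RefSeq. Methylation and chromatin samples were not analysed here. Other work used Python 3.11.15, numpy 2.4.6, pandas 2.3.3 and matplotlib 3.10.9.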

Additional observations from a re-analysis of the deposited data

Results flagged for a closer look

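Among the 5 libraries in TSa2i/L, 33 members were checked for 1 value standing apart, and 2 had one, where chance gives about 1.65. Eno1 stood at 14.8 FPKM in TSa2i-14 p22, a gap of 0.736 of the whole range, and its reads are uncertain beside Eno1b. Ldhb stood at 637 FPKM in TSa2i-C57 p9, a gap of 0.725 of the range. About 1 in 20 groups passes this rule by chance.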

How the results depend on the processing

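With 3 pairs and 2 residual degrees of freedom the switch comparison misses small changes, and without 2i-O48-TKO 6 of its 7 calls were lost, at changes of -1.0 to -0.68, while the calls over all genes fell from 672 to 311. The number of members called was 2 in TSa2i/L against 2i/L. It was 1 with no filter, with a mean FPKM of at least 5, with quantile normalization, with an absolute log2 change of at least 1 and with TSa2i-14 alone. It was 0 without the 3 libraries with high fibroblast markers, and 0 to 6 when single libraries were left out. In the switch comparison it was 7. It became 0 with no filter, 3 with a mean FPKM of at least 5, 3 with median centring, 4 with no trend, 12 when 2i-14 p18, p39 and p50 all served as controls, and 2 to 15 when lines were left out. With no replicate block it was 5, namely Aldoa, Gpi1, Ldha, Pdha1 and Pkm, and Slc2a1 was not called (limma adjusted p = 0.0565). With 2i-14 p18 or p39 as control, chosen after seeing the data, it was 11 or 13. Between TSa2i-C57 and TSa2i-14 it was 0, 5 without the 2 libraries with high fibroblast markers, and 0 to 1 when single libraries were left out. The cause was not tested. In the deletion, passage and interaction comparisons it was 0 under all alternatives run, the passages without both libraries with high fibroblast markers (chosen after seeing the data) included. In the deletion comparison, leaving out single libraries gave changes of -0.51 to 2.25 for Aldoc and -0.07 to 1.39 for Pfkfb3, below 0 without 2i-O48-TKO. Median centring moved all switch changes by 0.17 and all medium changes by -0.12. Of 270 single-gene values, 223 kept their direction and side of the threshold, 40 lost the call, 5 gained it and 2 reversed.
The calls over all genes ranged from 229 to 1250 in the medium comparison and from 0 to 1522 in the switch comparison, against 786 and 672.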
